A study of Mus musculus with 24 samples.

Results

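Prostaglandins are short-lived lipid signals made from arachidonic acid, and 10 genes of their synthesis, sensing and breakdown were followed here among the 43346 genes counted in mouse cerebral cortex. The genes were chosen by symbol and by their place in the pathway, with earlier results of these data known. All 10 were counted and passed the filter on low counts. They are the cyclooxygenases Ptgs1 and Ptgs2, the terminal synthases Ptges, Ptges2, Ptgds and Ptgis, the receptors Ptger2, Ptger3 and Ptger4, and the degrading enzyme Hpgd.

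The study sequenced cortical RNA of 24 mice, 1 library per mouse, in 4 groups of 6 formed by a genotype label (control or Abca7) and a stimulus label (none or LPS). LPS (lipopolysaccharide, from the outer wall of Gram-negative bacteria) starts an innate immune response. Abca7 encodes a lipid transporter, and the design text calls the mice with that label heterozygous and states that LPS was given by injection. Not given in the sources used here are its dose and route, the time to collection, the strain and what the mice with stimulus none received. Control mice without LPS were 55 to 57 days old and control mice with LPS 54 to 56 days. Mice labelled Abca7 were 55 to 58 days old without LPS and 54 to 56 days with it. Each title carries a different number, so each group was taken as 6 animals, and if that is wrong the p-values measure only the spread between libraries.

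Library totals ran from 48149131 to 75741388 counts. The Abca7 gene itself does not separate the genotype labels downward: it stood at 26.6 to 32.2 CPM (counts per 1000000 counts of the library, after normalization) in control mice and 29.9 to 34.8 in mice labelled Abca7 without LPS, and at 20.6 to 27.1 and 25.2 to 31.5 CPM with LPS. Its genotype difference was 0.17 ± 0.07 (log2, SE) without LPS and 0.26 ± 0.07 with LPS, with edgeR adjusted p of 0.606 and 0.267. The mice are therefore called "labelled Abca7" throughout. Neuronal, astrocyte, oligodendrocyte and microglial markers were detected in every group, as the tissue label implies. The summed level of 8 choroid plexus markers ran from 16.6 to 308 CPM (median 27.3) in unstimulated control mice. Only replicate 1 there was at 308 CPM, and the other libraries of that group were at 34.6 CPM or less. In control mice given LPS the sum ran from 194 to 558 CPM (median 298). With the Abca7 label that sum ran from 63.0 to 509 CPM (median 449) without LPS and from 37.7 to 440 CPM (median 309) with it. The level of these markers thus differed between most unstimulated control mice and the groups set against them. Its part in the LPS and genotype comparisons was not tested, and fits with the marker Ttr as a covariate are given below. Among mice labelled Abca7 and given LPS, replicate 4 stood apart from the other 5 libraries in several of the 10 genes. For the results that rest most on it, its own value or the result without it is also given.

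As background, phospholipase A2 frees arachidonic acid from membranes, and cyclooxygenase turns it into the unstable intermediate PGH2. Terminal synthases then make PGE2, PGD2 or prostacyclin from PGH2, these signals act on G protein-coupled receptors, and hydroxyprostaglandin dehydrogenase (Hpgd) inactivates them. In brain, Ptgs2 is made by neurons at rest and by vascular cells during systemic inflammation, and PGE2 made by vascular Ptgs2 and Ptges is a known mediator of fever.

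The genes lie on 6 chromosomes, 5 of them on chromosome 2 (coordinates on mm10 as deposited). Ptgs2 is at chr1:150100031-150108227 on the plus strand, and Pla2g4a, which encodes the cytosolic phospholipase A2, starts its nearer end 138740 bases away with no protein-coding gene between. Ptges lies at chr2:30889471-30929863 (minus), Ptges2 at chr2:32395896-32405772 (plus), Ptgds at chr2:25466709-25470046 (minus), Ptgs1 at chr2:36230426-36252272 (plus) and Ptgis at chr2:167191805-167240604 (minus). Ptger3 is at chr3:157566892-157644758 (plus), Hpgd at chr8:56294552-56321046 (plus), Ptger2 at chr14:44988195-45003820 (plus) and Ptger4 at chr15:5206661-5244187 (minus). In GENCODE M21, a gene annotation on the same build, no exon base of Ptgs2, Ptges, Ptges2, Ptgds, Ptger3 or Hpgd overlaps another gene. The overlap was 3.8% of exon bases for Ptgs1, 4.7% for Ptger2, 6.1% for Ptgis and 16.5% for Ptger4, all with genes on the opposite strand. Whether the counting used strand is not known here, so reads in those stretches cannot be divided.

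The promoters of Ptgs2, Ptges and Hpgd are printed because these 3 genes had the largest responses to LPS among the 10. Each is the 250 bases before a RefSeq transcript start (GRCm38.p6), written 5′ to 3′ along the gene's strand, and 9 of the 10 genes had an entry. Capitals mark matches to the motifs searched. The Ptges start used by RefSeq lies inside the longer gene span of the deposited table.
Ptgs2, chr1:150099781-150100030, plus strand: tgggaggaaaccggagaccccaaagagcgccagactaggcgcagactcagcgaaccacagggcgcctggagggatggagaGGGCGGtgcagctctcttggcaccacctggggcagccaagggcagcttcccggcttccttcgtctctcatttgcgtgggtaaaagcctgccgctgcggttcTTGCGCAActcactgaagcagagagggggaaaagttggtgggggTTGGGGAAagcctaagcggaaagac
Ptges, chr2:30903298-30903547, minus strand: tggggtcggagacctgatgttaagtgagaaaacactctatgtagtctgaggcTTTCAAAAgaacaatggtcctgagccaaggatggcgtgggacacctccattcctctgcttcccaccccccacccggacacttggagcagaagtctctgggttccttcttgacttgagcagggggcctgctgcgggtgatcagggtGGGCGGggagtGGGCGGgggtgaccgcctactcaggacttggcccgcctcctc
Hpgd, chr8:56294302-56294551, plus strand: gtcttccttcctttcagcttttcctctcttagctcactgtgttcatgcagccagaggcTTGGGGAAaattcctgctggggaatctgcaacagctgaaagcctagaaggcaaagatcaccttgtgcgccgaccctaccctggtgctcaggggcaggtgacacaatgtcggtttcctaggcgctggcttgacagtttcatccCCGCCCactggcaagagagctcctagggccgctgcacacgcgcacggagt
Searched on both strands were TTNNGNAA for C/EBP factors, GGGCGG for the GC box, CACGTG for the E-box, TGACG for the CRE core, TATAAA for the TATA box and the NF-kB consensus. Ptgs2 held C/EBP matches starting at -69 and -25 from the transcript start and a GC box at -170. Ptges held a C/EBP match at -198 and GC boxes at -53 and -42, and Hpgd a C/EBP match at -192 and a GC box at -50. These matches do not set the rising genes apart from the falling gene by kind, and they are common: of 32851 promoters of that length, 36.8% held a C/EBP match and 32.7% a GC box. None of the 3 windows held the CRE core, E-box, NF-kB consensus or TATA letters, which 17.8%, 6.0%, 7.3% and 12.4% of all promoters held. The windows end at the RefSeq transcript start used. Bases past it or further upstream were not searched, so this absence does not describe the whole promoters. Elsewhere in the pathway, Ptgds held an NF-kB match at -22, Ptges2 an E-box at -77, Ptger3 3 GC boxes and Ptger4 4, and the Ptgs1 window held no match. A match describes letters and shows no binding.

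With LPS, control mice had 4.63-fold more Ptgs2 and 4.94-fold more Ptges RNA, and Hpgd fell to 0.435 of its unstimulated level. Ptgs1 and Ptges2 fell slightly, and Ptgds, Ptgis and the receptors Ptger2, Ptger3 and Ptger4 did not pass the test. With the Abca7 label, Ptgs2 rose 2.997-fold, Ptges rose 3.86-fold, and Hpgd and Ptgs1 fell. In edgeR's quasi-likelihood test over 21891 genes (threshold, Benjamini-Hochberg adjusted p of 0.05), 5 of the 10 genes were called in control mice, 2 higher and 3 lower, where 17.3% of all tested genes were called (9.39% higher and 7.92% lower). In mice labelled Abca7, 4 of the 10 were called, 2 higher and 2 lower, against 11.8% of all tested genes (6.65% higher and 5.18% lower). The median log2 change over the 10 was -0.03 in control mice and -0.05 in mice labelled Abca7, beside 0.01 over all tested genes in both.

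**Figure D1:**
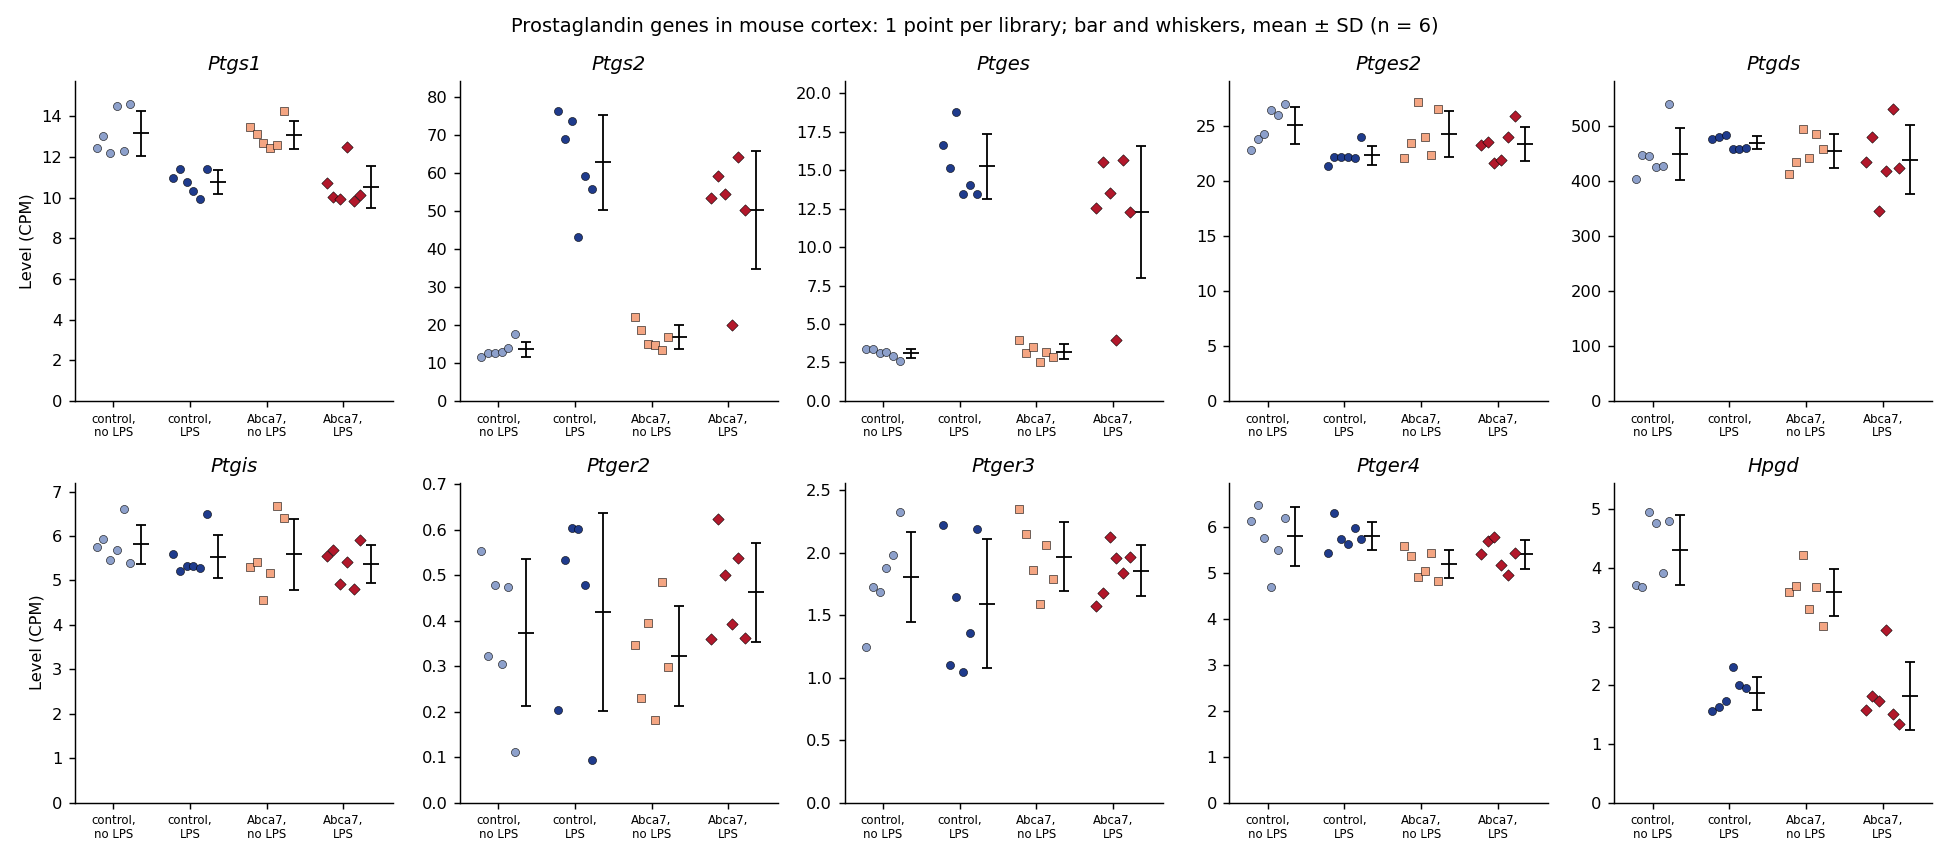
Level of each of the 10 genes in CPM (vertical axes, each from 0) in the 4 groups of 6 libraries; points are libraries, bars with whiskers are mean ± SD. Ptgs2 and Ptges are high and Hpgd low in both LPS groups, except in 1 library labelled Abca7 with LPS (replicate 4: Ptgs2 at 20.05, Ptges at 3.98 and Hpgd at 2.94 CPM).

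In the plot of levels by library, the LPS and unstimulated libraries of control mice did not overlap for Ptgs1, Ptgs2, Ptges and Hpgd, 4 of the 10 genes (2 higher, 2 lower), where 9.06% of tested genes had groups that did not overlap (5.38% higher, 3.69% lower). Among mice labelled Abca7 the groups did not overlap for Ptges (higher) and Hpgd (lower), where 5.73% of tested genes did not (3.49% higher, 2.24% lower).

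Ptgs2, the inducible cyclooxygenase, ran from 11.5 to 17.5 CPM (median 12.8) in unstimulated control mice and from 43.0 to 76.2 CPM (median 64.2) in control mice given LPS. With the Abca7 label it ran from 13.5 to 22.2 CPM (median 15.9) without LPS and from 20.05 to 64.3 CPM (median 54.0) with LPS. Among control mice every stimulated library lay well above every unstimulated one. Under the Abca7 label the groups overlapped through replicate 4 alone: its 20.05 CPM lay below the 22.2 CPM of an unstimulated library, and the other 5 stimulated libraries were at 50.2 CPM or more. The log2 fold change was 2.21 ± 0.19 (SE) in control mice (edgeR adjusted p = 6.79e-10) and 1.58 ± 0.19 in mice labelled Abca7 (edgeR adjusted p = 3.25e-07). Without replicate 4 the latter was 1.74 ± 0.13 (edgeR adjusted p = 4.51e-11).

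Ptgs1, the constitutive cyclooxygenase, which in brain is found mostly in microglia, ran from 12.2 to 14.6 CPM (median 12.7) in unstimulated control mice and from 9.92 to 11.4 CPM (median 10.8) in control mice with LPS. Mice labelled Abca7 ranged from 12.4 to 14.3 CPM (median 12.9) without LPS and from 9.82 to 12.5 CPM (median 10.1) with LPS. The highest stimulated value, 12.5 CPM, was again replicate 4, and the other 5 stimulated libraries were at 10.7 CPM or less. The fall was -0.29 ± 0.06 (log2, SE) in control mice (edgeR adjusted p = 0.00106) and -0.32 ± 0.06 in mice labelled Abca7 (edgeR adjusted p = 5.42e-04), and -0.37 ± 0.06 without replicate 4 (edgeR adjusted p = 1.91e-05). Per library, Ptgs2 divided by Ptgs1, both per kilobase of gene length, was 0.872 ± 0.103 (SD, n = 6) in unstimulated control mice and 4.93 ± 0.929 with LPS. With the Abca7 label it was 1.09 ± 0.181 without LPS and 4.17 ± 1.47 with it, and replicate 4 was at 1.36. All 12 stimulated libraries held more Ptgs2 than Ptgs1 per kilobase, and only replicate 4 lay within the unstimulated range of its genotype (0.909 to 1.39).

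All 7 microglial markers fell with LPS in both genotypes, P2ry12 by -1.43 ± 0.13 and Tmem119 by -1.16 ± 0.10 in control mice (log2, SE; edgeR adjusted p = 3.06e-09 and 6.18e-10). Csf1r, the receptor for the growth factor that microglia depend on, fell less, by -0.24 ± 0.03 (edgeR adjusted p = 4.05e-06). The summed level of the 7 markers ran from 259.6 to 268 CPM in unstimulated and 172 to 189 CPM in stimulated control mice. Under the Abca7 label it ran from 251 to 271 CPM and from 169.7 to 209.7 CPM, with replicate 4 the highest of the stimulated libraries at 209.7 CPM. Fewer cells of a type and less RNA per cell cannot be told apart in these bulk samples, and the part of microglial RNA in the fall of Ptgs1 was not tested. The Ptgs1 call ended with surrogate variables as covariates, at -0.13 ± 0.08 in control mice and -0.16 ± 0.08 in mice labelled Abca7 (edgeR adjusted p = 0.452 and 0.371). Surrogate variables are patterns of variation between libraries beyond the group labels, estimated from all tested genes. They can still differ between the groups, so a call lost with them does not show its cause. The Ptgs1 call also ended with the level of Ttr, a choroid plexus gene, in control mice (-0.25 ± 0.09, edgeR adjusted p = 0.0992) and with meningeal markers in both genotypes.

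**Figure D2:**
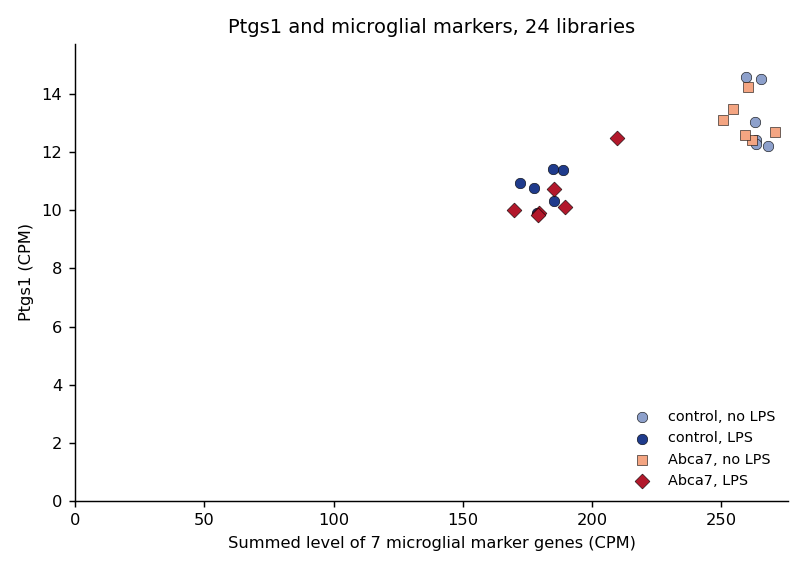
Level of Ptgs1 (vertical axis, CPM) against the summed level of 7 microglial marker genes (horizontal axis, CPM) in the 24 libraries, by group. Unstimulated libraries lie at the upper right, stimulated ones at the lower left, and replicate 4 of mice labelled Abca7 with LPS lies between them on the horizontal axis, at 209.7 CPM, and level with the lower unstimulated libraries on the vertical axis, at 12.5 CPM.

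In the plot of Ptgs1 against microglial markers the groups form separate clusters by stimulus, and both axes share the same libraries and depth, so no correlation is given.

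Ptges, the inducible microsomal synthase that makes PGE2 downstream of Ptgs2, ran from 2.62 to 3.38 CPM (median 3.14) in unstimulated control mice and from 13.4 to 18.8 CPM (median 14.6) with LPS. The range in mice labelled Abca7 was 2.54 to 3.94 CPM (median 3.14) without LPS and 3.98 to 15.7 CPM (median 13.1) with LPS. The groups did not overlap in either genotype, but in mice labelled Abca7 replicate 4, at 3.98 CPM, lay just above the highest unstimulated library, and the other 5 were at 12.3 CPM or more. The log2 fold change was 2.30 ± 0.20 (SE) in control mice (edgeR adjusted p = 5.85e-10) and 1.95 ± 0.20 in mice labelled Abca7 (edgeR adjusted p = 1.99e-08). Without replicate 4 it was 2.13 ± 0.10 in mice labelled Abca7 (edgeR adjusted p = 1e-14).

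Ptges2, a membrane-associated protein also described as a PGE2 synthase, ran from 22.9 to 27.0 CPM (median 25.1) in unstimulated and 21.3 to 23.99 CPM (median 22.2) in stimulated control mice, and the groups overlapped. Its change there was -0.17 ± 0.05 (log2, SE; edgeR adjusted p = 0.0325). The call ended in 10 of 20 alternatives: the Ttr, meningeal and surrogate covariates, and 7 that left out a library (control mice with LPS, replicates 1, 3, 4 and 5, and unstimulated control mice, replicates 4, 5 and 6), the latter with edgeR adjusted p from 0.0573 to 0.0839. Mice labelled Abca7 ranged from 22.04 to 27.1 CPM without LPS and from 21.6 to 25.9 CPM with LPS, a change of -0.05 ± 0.05 (edgeR adjusted p = 0.622). Per kilobase of gene length, Ptges stood at 0.160 ± 0.0240 (SD, n = 6) of Ptges2 in unstimulated and 0.883 ± 0.140 in stimulated control mice, and at 0.171 ± 0.0343 and 0.673 ± 0.234 in mice labelled Abca7. Replicate 4 of mice labelled Abca7 with LPS was at 0.234, and the other libraries of its group were at 0.611 to 0.848. Between these transcripts, Ptges2 was the more abundant at rest, and in control mice given LPS the levels came near each other.

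Ptgds, the lipocalin-type synthase of PGD2 that is abundant in meninges and choroid plexus, was by far the most abundant of the 10 in every group. It ran from 403 to 538 CPM (median 436) in unstimulated and 458 to 483 CPM (median 467) in stimulated control mice. The range in mice labelled Abca7 was 411 to 494 CPM (median 449) without LPS and 344 to 530 CPM (median 429) with LPS. The groups overlapped, and the changes were 0.07 ± 0.07 and -0.05 ± 0.07 (log2, SE; edgeR adjusted p = 0.601 and 0.753). Among 10 meningeal fibroblast markers, 1 rose and 5 fell in control mice, and 1 rose and 4 fell in mice labelled Abca7. Their summed level ran from 109 to 128 CPM in unstimulated and 88.1 to 115 CPM in stimulated control mice. With the mean of those markers as a covariate, Ptgds in control mice passed the threshold at 0.26 ± 0.07 (edgeR adjusted p = 0.0219). Because 5 of those markers fell with LPS there, this covariate can itself differ between the groups. The call gained with it therefore does not show a rise of Ptgds RNA.

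Ptgis, the prostacyclin synthase, stayed between 4.56 and 6.69 CPM in all 24 libraries. Its changes were -0.07 ± 0.08 in control mice and -0.06 ± 0.08 in mice labelled Abca7 (log2, SE; edgeR adjusted p = 0.629 and 0.765), and the groups overlapped.

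Ptger4, the EP4 receptor of PGE2, ran from 4.69 to 6.47 CPM (median 5.94) in unstimulated and 5.42 to 6.31 CPM (median 5.72) in stimulated control mice. Mice labelled Abca7 ranged from 4.82 to 5.58 CPM (median 5.20) without LPS and from 4.94 to 5.77 CPM (median 5.41) with LPS. The LPS changes were 0.00 ± 0.07 and 0.06 ± 0.07 (log2, SE; edgeR adjusted p = 0.986 and 0.692). Ptger3, the EP3 receptor through which PGE2 acts on thermoregulatory neurons, ran from 1.25 to 2.33 CPM in unstimulated and 1.05 to 2.22 CPM in stimulated control mice, and from 1.59 to 2.35 and 1.58 to 2.13 CPM in mice labelled Abca7. Its LPS changes were -0.19 ± 0.17 and -0.09 ± 0.17 (log2, SE; edgeR adjusted p = 0.495 and 0.822).

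Ptger2, the EP2 receptor, had the lowest level, with 5 to 46 counts per library. It ran from 0.112 to 0.554 CPM in unstimulated and 0.0929 to 0.604 CPM in stimulated control mice, and from 0.182 to 0.485 and 0.359 to 0.624 CPM in mice labelled Abca7. Its LPS changes were 0.19 ± 0.34 and 0.52 ± 0.35 (log2, SE; edgeR adjusted p = 0.776 and 0.408), and smaller changes were not detectable at this depth. For the Abca7 label an exact two-sided permutation test of its mean log2 CPM gave p = 0.0476, not adjusted over the 40 such tests made, where the smallest p that 6 against 6 allows is 0.00216. Ptger2, Ptger3 and Ptger4 thus gave no call with LPS in either genotype.

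Hpgd, which inactivates PGE2 and related prostaglandins, ran from 3.68 to 4.96 CPM (median 4.33) in unstimulated control mice and from 1.55 to 2.31 CPM (median 1.84) with LPS. With the Abca7 label it ran from 3.02 to 4.22 CPM (median 3.63) without LPS and from 1.34 to 2.94 CPM (median 1.66) with LPS. The groups did not overlap in either genotype, with replicate 4, at 2.94 CPM, just under the lowest unstimulated library. The log2 fold change was -1.20 ± 0.14 (SE) in control mice (edgeR adjusted p = 2.72e-07) and -0.98 ± 0.15 in mice labelled Abca7 (edgeR adjusted p = 1.23e-05). Without replicate 4 the latter was -1.17 ± 0.12 (edgeR adjusted p = 2.54e-08). The ratio of Ptgs2 to Hpgd, per kilobase, was 1.19 ± 0.173 (SD, n = 6) in unstimulated and 13.2 ± 4.27 in stimulated control mice, and 1.78 ± 0.393 and 11.6 ± 4.67 in mice labelled Abca7. Replicate 4 of mice labelled Abca7 with LPS was at 2.56, and the other libraries of its group were at 11.8 to 16.0.

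**Figure D3:**
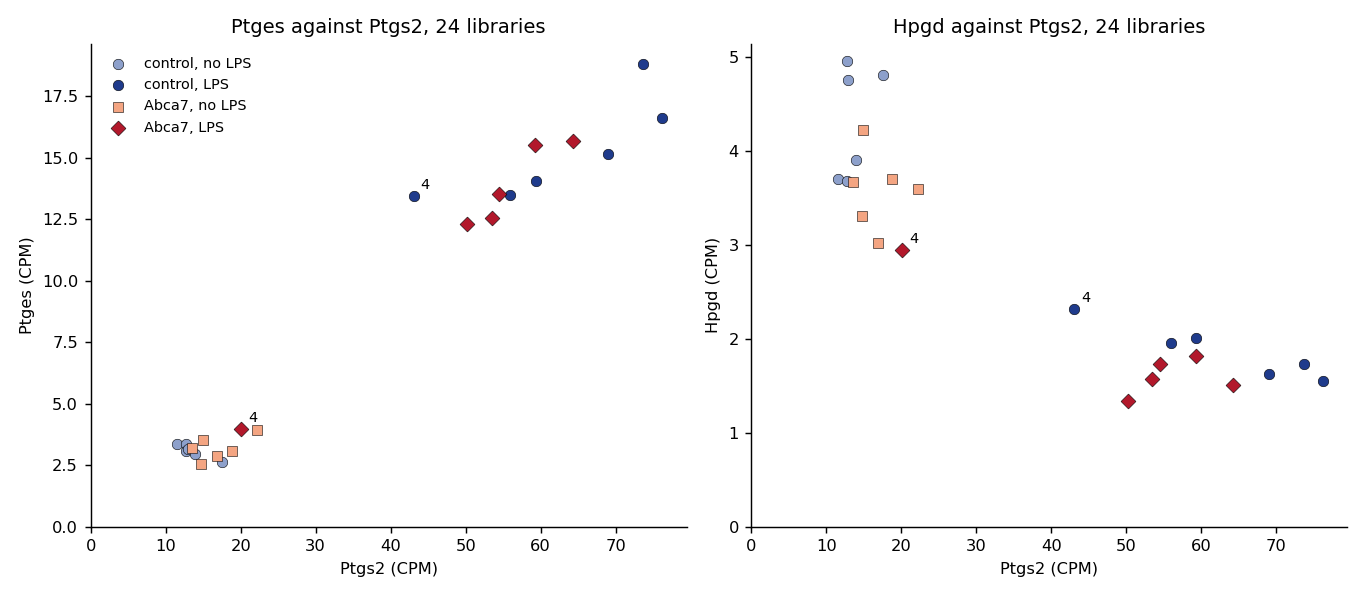
Ptges (left) and Hpgd (right) against Ptgs2, all in CPM, in the 24 libraries by group; the number 4 marks replicate 4 of each LPS group. Stimulated libraries have high Ptgs2 and Ptges and low Hpgd, and replicate 4 of mice labelled Abca7 lies beside the unstimulated libraries.

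The plot of Ptges and Hpgd against Ptgs2 shows that the stimulated library with the least Ptgs2 in each genotype, replicate 4 in both, also had the least Ptges and the most Hpgd of its group. For control mice those values were 43.0 CPM of Ptgs2, 13.4 CPM of Ptges and 2.31 CPM of Hpgd. That Ptges level was nearly the same as in replicate 6, at 13.5 CPM, so replicate 4 of control mice did not stand apart for Ptges. Endothelial markers, which mark a cell type known to make Ptgs2 and Ptges in inflamed brain, moved in both directions. In each genotype 1 of 7 rose and 5 fell, Cdh5 rising by 1.41 ± 0.12 and Cldn5 falling, at -1.49 ± 0.17 in control mice (log2, SE; edgeR adjusted p = 6.98e-10 and 1.16e-07). Their summed level ran from 244.5 to 283 CPM in unstimulated and 211 to 231 CPM in stimulated control mice, and from 247 to 293 and 203 to 235 CPM in mice labelled Abca7. Of 6 markers of perivascular macrophages, 2 fell in each genotype, and their sum ran from 12.04 to 16.9 CPM in unstimulated and 8.31 to 13.4 CPM in stimulated control mice. Of 6 neutrophil markers only 2 passed the filter, both rose in both genotypes, the list summed to at most 3.06 CPM in any library, and Ly6g was at 0 in all 12 control libraries. Of 4 monocyte markers, 2 rose in each genotype, and the sum was at most 6.24 CPM. The part of these cell types in the changes of Ptgs2, Ptges and Hpgd was not tested.

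Compared per kilobase of gene length (CPM per kilobase), the order of levels in unstimulated control mice was Ptgds at 271 ± 28.6 (SD, n = 6), Ptges2 at 4.95 ± 0.327, Ptgs1 at 3.39 ± 0.286, Ptgs2 at 2.96 ± 0.456, Hpgd at 2.502 ± 0.348 and Ptgis at 2.26 ± 0.171. Below them came Ptger4 at 0.871 ± 0.0960, Ptger3 at 0.859 ± 0.170, Ptges at 0.787 ± 0.0725 and Ptger2 at 0.102 ± 0.0437. Ranges of neighbours overlapped from Ptgs1 through Ptgis and from Ptger4 through Ptges, so only Ptgds, Ptges2 and Ptger2 had a place of their own. In stimulated control mice Ptgs2 at 13.7 ± 2.74 was second to Ptgds at 284 ± 7.13. Ptges2 at 4.41 ± 0.175 and Ptges at 3.88 ± 0.540 overlapped, followed by Ptgs1 at 2.78 ± 0.154 and Ptgis at 2.16 ± 0.189, and Hpgd at 1.08 ± 0.164 overlapped with Ptger4 at 0.872 ± 0.0463. Under the Abca7 label Ptgs2 was at 3.67 ± 0.699, overlapping with both Ptges2 and Ptgs1, without LPS and at 10.98 ± 3.41 with it, and Ptges at 0.813 ± 0.125 and 3.12 ± 1.10. Replicate 4 with LPS was at 4.38 for Ptgs2 and 1.01 for Ptges. The gene length in the deposited table was shorter than the exon length in GENCODE M21 for Ptger3 (2107 against 5688 bases) and, by a smaller gap, Ptger2, so their place in this order depends on the annotation.

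**Figure D4:**
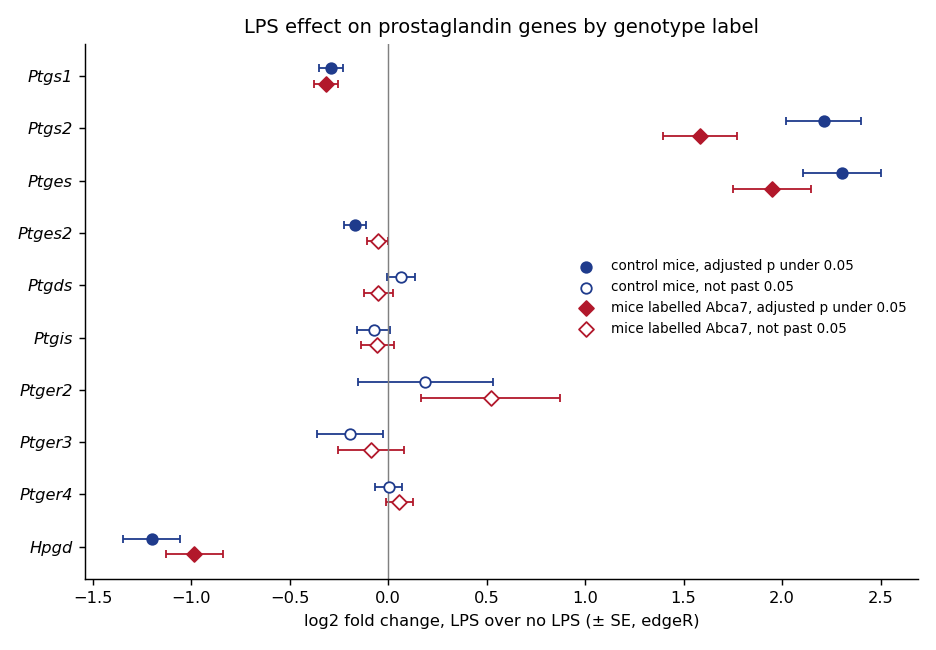
Log2 fold change with LPS over no LPS (horizontal axis, edgeR, ± SE) of the 10 genes in control mice (circles) and mice labelled Abca7 (diamonds); filled symbols passed an adjusted p of 0.05. Ptgs2 and Ptges lie far to the right and Hpgd to the left in both genotypes, and the other genes lie between -0.32 (Ptgs1) and 0.52 (Ptger2), both in mice labelled Abca7.

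The plot of LPS effects sets the genotypes side by side. The difference between them was tested as an interaction, in which no gene of 21891 was called (0%), 745 had an unadjusted p under 0.05 (3.4%) and DESeq2 also called 0. Of the 10 genes 1 had an unadjusted p under 0.05 in edgeR, and likewise 1 in DESeq2: Ptgs2 at -0.63 ± 0.26 (log2, SE), a smaller rise in mice labelled Abca7 (unadjusted p = 0.0239, edgeR adjusted p = 1). Without replicate 4 of mice labelled Abca7 with LPS it was -0.46 ± 0.18 (edgeR adjusted p = 1). The other interactions ranged from -0.35 ± 0.27 for Ptges to 0.33 ± 0.49 for Ptger2, each with an edgeR adjusted p of 1. Hpgd was at 0.22 ± 0.20 and at 0.04 ± 0.16 without replicate 4.

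The genotype comparison asks what the Abca7 label changes at a fixed stimulus, and shares its groups with the LPS comparisons. Without LPS, 0 of the 10 genes were called, where 7 genes or 0.032% of those tested were called by edgeR. The genotype groups overlapped for all 10 genes, with or without LPS, where 0.26% and 0.425% of tested genes had groups that did not. At an unadjusted p under 0.05 stood 1 of the 10, Ptger4 at -0.16 ± 0.07 (log2, SE; edgeR adjusted p = 0.718), beside 6.51% of tested genes, and DESeq2 also called 0 of the 10. Ptgs2 was at 0.31 ± 0.19 and Hpgd at -0.26 ± 0.14 (edgeR adjusted p = 0.879 and 0.804). Exact two-sided permutation tests of mean log2 CPM gave p = 0.0498 for Ptgs2 and 0.039 for Hpgd, neither adjusted over the 40 tests. With LPS, 0 of the 10 were called, as were 0% of tested genes, and none of the 10 had an unadjusted p under 0.05 in edgeR or DESeq2, beside 7.99% of tested genes in edgeR. The differences were -0.32 ± 0.18 for Ptgs2 and -0.31 ± 0.18 for Ptges (edgeR adjusted p = 0.68 and 0.688), and without replicate 4 they were -0.16 ± 0.12 and -0.13 ± 0.10 (edgeR adjusted p = 0.757 and 0.727). Hpgd was at -0.05 ± 0.15 (edgeR adjusted p = 0.955), and at -0.23 ± 0.12 without replicate 4 (edgeR adjusted p = 0.601). No genotype difference in the 10 genes was therefore detectable with 6 mice a group.

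Age varied within and between groups, and LPS effects could be compared within an age as plain differences of mean log2 CPM. At 55 days (2 against 2 control mice) Ptgs2 differed by 2.06, Ptges by 2.42, Hpgd by -1.30 and Ptgs1 by -0.26. At 56 days (3 against 3) the differences were 2.19, 2.11, -1.04 and -0.25. Among mice labelled Abca7 at 55 days (3 against 2) they were 1.76, 2.28, -1.21 and -0.41. The 4 genes kept their direction within each age, and these differences are given without a test.

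Outside the 10, a list of 30 other genes of the pathway was examined, of which 29 passed the filter (Alox15 did not). In control mice 3 rose and 7 fell with LPS, and in mice labelled Abca7 2 rose and 5 fell, beside the 17.3% and 11.8% of all tested genes called. Their median log2 change was -0.06 and -0.02. None was called between genotypes or in the interaction. The genotype groups of Abcc4 without LPS did not overlap, at 12.28 to 14.05 CPM in control mice and 14.47 to 16.36 CPM in mice labelled Abca7. Of tested genes, 0.26% had genotype groups without overlap there. Some calls appeared only in alternatives. Tbxas1 fell in mice labelled Abca7 without replicate 4 with LPS (-0.43 ± 0.14, log2, SE; edgeR adjusted p = 0.0406). Ptgdr2 rose in control mice without replicate 6 with LPS, or without unstimulated replicate 2 or 5 (edgeR adjusted p = 0.0272, 0.0301 and 0.0352). Of the exon bases of Ptgdr2, 39.0% overlap another gene, and the control libraries held 15 to 48 counts of it. Abcc4 rose in control mice with meningeal markers as covariate (0.35 ± 0.07, edgeR adjusted p = 5.61e-04), and this covariate can itself differ between the groups.

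Of 4 genes of substrate release, Pla2g4a rose in both genotypes. It ran from 2.88 to 3.50 CPM (median 3.06) in unstimulated and 4.44 to 5.56 CPM (median 4.89) in stimulated control mice, with no overlap. Mice labelled Abca7 ranged from 2.65 to 4.61 CPM (median 2.81) without LPS and from 3.72 to 5.63 CPM (median 4.64) with LPS, and the groups overlapped. The log2 changes were 0.67 ± 0.11 and 0.55 ± 0.12 (SE; edgeR adjusted p = 7.9e-05 and 0.00132). The gene with the highest level per kilobase in this list was Mgll, a lipase that frees arachidonic acid from an endocannabinoid, at 33.5 to 42.4 CPM per kilobase over the 24 libraries. Its changes were -0.06 ± 0.04 and 0.05 ± 0.04 (log2, SE; edgeR adjusted p = 0.43 and 0.509).

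Of 6 other terminal synthases, Hpgds, the haematopoietic synthase of PGD2 found in microglia, fell in both genotypes. It ran from 5.35 to 7.12 CPM in unstimulated and 3.10 to 4.09 CPM in stimulated control mice, and from 4.64 to 6.64 and 3.37 to 5.57 CPM in mice labelled Abca7, where the groups overlapped. Its changes were -0.75 ± 0.11 and -0.54 ± 0.11 (log2, SE; edgeR adjusted p = 1.3e-05 and 0.00138). The latter call ended with the meningeal or surrogate covariates, at adjusted p of 0.0758 and 0.223. Hpgds thus fell where Ptgds, the other PGD2 synthase, gave no call. Cbr1, a carbonyl reductase, was called in mice labelled Abca7 only by a narrow margin (0.12 ± 0.04, edgeR adjusted p = 0.047), and this call ended in 14 of 20 alternatives. Ptges3, the cytosolic PGE2 synthase and a co-chaperone, stood at 29.7 CPM per kilobase in unstimulated control mice, above both Ptges2 and Ptges, and did not pass the test with LPS (0.02 ± 0.06 and -0.02 ± 0.06, log2, SE; edgeR adjusted p = 0.884 and 0.923). Of the 50-base stretches of Ptges3 transcripts, 19.6% also occur in transcripts of other genes, and how such reads were counted is not known here. Fam213b, a prostaglandin F synthase, had the highest level in this list, at 31.7 to 41.0 CPM per kilobase.

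Of 6 other prostanoid receptors, 1 rose and 4 fell in control mice, and 3 fell in mice labelled Abca7. Ptgir, the prostacyclin receptor, ran from 0.0319 to 0.178 CPM in unstimulated and 0.296 to 0.552 CPM in stimulated control mice, without overlap, on 2 to 31 counts per library. Its change was 2.08 ± 0.40 in control mice and 0.72 ± 0.40 in mice labelled Abca7 (log2, SE; edgeR adjusted p = 3.27e-04 and 0.288), and the interaction was -1.37 ± 0.57 (edgeR adjusted p = 1). Ptgdr, a PGD2 receptor, fell by -1.22 ± 0.32 and -1.03 ± 0.32 (edgeR adjusted p = 0.00743 and 0.0327), and Ptgfr, the PGF2alpha receptor, by -0.94 ± 0.24 and -0.95 ± 0.24 (edgeR adjusted p = 0.00505 and 0.00693). Both stood at 1.47 CPM or less in every library, and their calls in control mice ended with the Ttr, meningeal or surrogate covariates. Of the exon bases of Ptgdr, 22.1% overlap another gene. For the Abca7 label the Ptgdr call ended in 10 of 20 alternatives and the Ptgfr call in 2. Ptger1, the EP1 receptor, was the remaining gene of this list that fell in both genotypes; its counts are uncertain and its values are not given. Tbxa2r, the thromboxane receptor, fell in control mice by -0.77 ± 0.24 (edgeR adjusted p = 0.0252), a call that ended in 7 of 20 alternatives, and was at 0.26 ± 0.24 in mice labelled Abca7 (edgeR adjusted p = 0.568).

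Of 5 genes of transport and further breakdown none fell, and Ptgr2, a prostaglandin reductase, rose in control mice by 0.18 ± 0.05 (log2, SE; edgeR adjusted p = 0.0101), a call that ended with the Ttr or surrogate covariates. With the Abca7 label it was at 0.13 ± 0.05 (edgeR adjusted p = 0.0832), and 32.0% of its exon bases overlap another gene. The LPS and unstimulated groups of Ptgr2 overlapped in control mice. Under the Abca7 label they did not, at 32.4 to 35.1 CPM without LPS and 36.2 to 42.0 CPM with it. There, 3.49% of tested genes had groups that were higher with LPS without overlap. Zadh2, also a prostaglandin reductase, had the highest level there, at 7.15 to 8.89 CPM per kilobase. Of 8 tested genes of the lipoxygenase branch, which makes leukotrienes and hydroxy fatty acids from the same substrate, Ltc4s fell in both genotypes, by -0.56 ± 0.15 and -0.55 ± 0.15 (edgeR adjusted p = 0.00921 and 0.0121). Both calls ended with the meningeal or surrogate covariates, and 26.4% of the exon bases of Ltc4s overlap another gene. Alox12 fell in control mice by -0.95 ± 0.27 (edgeR adjusted p = 0.0119), a call that ended without replicate 1 of the unstimulated control mice (edgeR adjusted p = 0.0508), and was at -0.15 ± 0.28 in mice labelled Abca7 (edgeR adjusted p = 0.813). Lta4h had the highest level of this branch, at 11.4 to 14.3 CPM per kilobase.

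Genes whose level followed that of a member from library to library were listed by Pearson's r of log2 CPM over the 24 libraries after each group's mean was removed, among 16650 genes. These r values share libraries and depth and are descriptions. Each was picked as among the highest of all those genes, so selection alone makes it high. Spearman's rho was lower for the pairs named except Ptgis with Uckl1os (0.822), down to 0.588 for Ptgds with Ssrp1. For Ptgs2 the 3 most alike were Ier3 (r = 0.896), Rnd1 (0.896) and Gpr84 (0.879), and for Ptges they were Tnfaip2 (0.935), Zfp36 (0.918) and Icam1 (0.909). Replicate 4 of mice labelled Abca7 with LPS carried much of this: without it the values were 0.72, 0.708 and 0.657 for Ptgs2 and 0.674, 0.668 and 0.533 for Ptges. For Hpgd they were Zfp935 (0.791), Mmgt1 (0.765) and Tubgcp4 (0.758), and 0.717, 0.596 and 0.526 without that library. Ptges2 was most like Zfpm1 (0.915, and 0.911 without replicate 4), Ptger3 most like Vps13a (0.864 and 0.863), Ptgds most like Ssrp1 (0.747 and 0.744), Ptgis most like Uckl1os (0.798 and 0.799) and Ptger4 most like Ankrd63 (0.757 and 0.753). Ptgs1 was most like 0610030E20Rik (0.776, and 0.721 without replicate 4).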

How the data were processed

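Per the labels' protocols, total RNA was taken from cortex with TRIzol, DNase and a column kit, and per the design text it was sequenced on an Illumina HiSeq 4000. The authors deposited raw gene counts made with MAP-RSeq 2.1.1, and the submitters' processing notes name STAR 2.5.2b and the build mm10. Not given in the sources used here are the annotation release, the strand setting and what was done with multiply matching reads.

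From the deposited counts, genes passing edgeR's filterByExpr (21891 of 43346, holding at least 99.96% of each library's counts) were fitted with edgeR 4.0.16 in R 4.3.3: TMM normalization, 1 coefficient per group over 24 libraries, 20 residual degrees of freedom, and Benjamini-Hochberg adjustment over all 21891 genes. Levels are TMM-scaled CPM, and log2 CPM used a prior count of 2. Exact permutation tests compared mean log2 CPM for single genes. No 2 libraries were identical. Alternatives used DESeq2 1.42.0, edgeR with RLE size factors in place of TMM, no filter, only the groups compared, covariates (age, Ttr, meningeal markers, 5 surrogate variables from sva 3.50.0) and each library left out. Replicate numbers follow accession order and are names only.

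The members, pathway genes and cell markers were chosen with earlier results of these data known. Tbxas1, Ptgdr2 and Abcc4 are named because only an alternative called them. All members are named, as are other pathway genes called in an LPS comparison or highest in their list (values of Ptger1 are not reported here; Ptges3 was added after its values were seen), and the 3 genes most alike to a member (the most alike only for 6 of them); microglial and endothelial markers named were chosen after their values were seen.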

Additional observations from a re-analysis of the deposited data

Results flagged for a closer look

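In 6 of the 40 sets of 6 libraries examined (10 genes in 4 groups), the highest or lowest library was separated from the rest by more than Dixon's limit, where chance gives about 1 in 20. Of these, 3 concern replicate 4 of mice labelled Abca7 with LPS, on the log2 CPM scale. Its Ptgs2 was the lowest at 4.328 (20.05 CPM, the others 50.2 to 64.3), its Ptges the lowest at 2.006 (3.98 CPM, the others 12.3 to 15.7), and its Ptgs1 the highest at 3.647 (12.5 CPM, the others 9.82 to 10.7). In control mice with LPS, replicate 6 was the highest for Ptges2 at 4.586 (23.99 CPM, the others 21.3 to 22.2) and for Ptgis at 2.705 (6.49 CPM, the others 5.20 to 5.59). In unstimulated control mice, replicate 6 was the highest for Ptgds at 9.072 (538 CPM, the others 403 to 446), and its meningeal marker sum was also the highest of its group at 128 CPM, whose part in the Ptgds level was not tested.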

How the results depend on the processing

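Ptgs2, Ptges and Hpgd kept their direction and their call in all 20 alternatives of each LPS comparison. The log2 changes in control mice ran from 1.999 to 2.46, 1.81 to 2.36 and -1.28 to -0.93, and in mice labelled Abca7 from 1.38 to 1.75, 1.43 to 2.13 and -1.17 to -0.70. Ptgs1 lost its call in control mice with the Ttr, meningeal or surrogate covariates (edgeR adjusted p = 0.0992, 0.0684 and 0.452) and in mice labelled Abca7 with the meningeal or surrogate covariates (0.0601 and 0.371). No call reversed. Of the 10 genes, 3 were called in control mice with Ttr as covariate and 3 with surrogate variables, against 5, and 4 to 5 with a library left out. In mice labelled Abca7, 4 were called with any library left out. Over all genes, the LPS count in control mice (3790) was 1626 with Ttr and 1836 with surrogate variables, and 3201 to 4189 with a library left out. In mice labelled Abca7 (2591) it was 1719 with meningeal markers and 1270 with surrogate variables, and 2165 to 2841 with a library left out. The genotype count without LPS (7) was 3 with only the groups compared, 49 with age, 3 with Ttr, 95 with surrogate variables, 31 with DESeq2 and 2 to 38 with a library left out. With LPS (0) it was 2 with age, 16 with surrogate variables, 2 with DESeq2 and 0 to 1 with a library left out. The interaction count (0) was 0 to 7 with a library left out. The cause of these shifts was not tested. No paired analysis was possible because the labels give no shared replicate numbers. Depth limits what can be seen for low genes such as Ptger2 and Ptgir, at 5 to 46 and 2 to 31 counts per library.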
